A study of Mus musculus with 7 samples.

Results

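The genes described here encode substrate adaptors of cullin-RING ubiquitin ligases: the Asb, Klhl, Kbtbd, Fbxo and Fbxl families. They were taken from the deposited table by symbol, as every row with one of these family names followed by a number, without the 5 genes Fbxo7, Fbxo21, Fbxo30, Fbxo32 and Fbxo40. That gave 110 of 21487 genes: 18 Asb, 36 Klhl, 9 Kbtbd, 29 Fbxo and 18 Fbxl genes. RNA was measured in the gastrocnemius, the fast calf muscle, of mice under immobilization-induced muscle atrophy. The knockout group lacked DJ-1 (gene Park7) in skeletal muscle (labelled skeletal muscle PARK7KO, 4 libraries, knockout 1 to 4). The control group carried the floxed gene and is labelled WT (3 libraries, control 1 to 3). Both groups were immobilized and no library of a free limb was analysed here, so values of immobilization itself are not given. The line that drives the deletion, the age and the sex of the mice are, in the sources used here, not given, nor whether each library is a separate animal, so p-values measure only the spread between these samples.

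A cullin-RING ligase is a modular enzyme that attaches ubiquitin to proteins and so marks many of them for the proteasome. The cullin is a scaffold that holds a RING protein at one end and a substrate adaptor at the other, and the adaptor decides which protein is marked. Asb proteins bind Cul5 through a SOCS box and the elongins B and C, Klhl and Kbtbd proteins bind Cul3 through a BTB domain, and Fbxo and Fbxl proteins bind Cul1 through an F-box and Skp1. Several of these adaptors are made chiefly in striated muscle, where they control filamins, nebulin and other sarcomere proteins, and mutations of KLHL40, KLHL41 and KBTBD13 cause nemaline myopathy.

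Promoter sequences are shown for the adaptor genes around which the results turn: Klhl41 and Asb2, which had the highest levels per length of all members, and Klhl34, which had the lowest log2 fold change of the tested members. Each runs 5′ to 3′ on the strand of the gene, from 250 bases before to 50 bases after a start site in RefSeq (GRCm38.p6). Capitals mark matches to 3 of 4 motifs that were searched on both strands: CAGCTG (an E-box bound by myogenic factors such as MyoD), the MEF2 motif and the SRF CArG box. The other motif was TGTTTAC, which FoxO factors bind, and it had no match in these windows. Klhl41 is shown at chr2:69669870-69670169 on the plus strand, Klhl34 at chrX:157818185-157818484 on the plus strand, and the starts of Asb2 at chr12:103355952-103356251 and chr12:103338341-103338640 on the minus strand.
Klhl41: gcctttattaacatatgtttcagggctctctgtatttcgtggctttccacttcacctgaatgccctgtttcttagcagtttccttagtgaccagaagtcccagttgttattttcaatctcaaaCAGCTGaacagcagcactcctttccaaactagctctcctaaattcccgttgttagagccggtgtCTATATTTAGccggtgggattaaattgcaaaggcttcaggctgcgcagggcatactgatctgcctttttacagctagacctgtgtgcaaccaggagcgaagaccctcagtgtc
Klhl34: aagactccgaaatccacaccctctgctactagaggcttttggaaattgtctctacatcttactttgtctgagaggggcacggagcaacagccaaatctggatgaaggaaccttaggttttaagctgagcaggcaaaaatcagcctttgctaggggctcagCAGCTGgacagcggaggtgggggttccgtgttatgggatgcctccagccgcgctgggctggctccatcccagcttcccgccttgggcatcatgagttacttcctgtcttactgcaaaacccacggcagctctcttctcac
Asb2, upstream start: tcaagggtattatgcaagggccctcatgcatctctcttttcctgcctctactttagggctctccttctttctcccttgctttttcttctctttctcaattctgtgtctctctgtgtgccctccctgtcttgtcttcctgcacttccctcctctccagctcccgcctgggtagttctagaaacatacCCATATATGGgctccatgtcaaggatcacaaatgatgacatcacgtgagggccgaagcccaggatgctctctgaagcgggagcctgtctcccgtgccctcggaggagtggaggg
Asb2, downstream start: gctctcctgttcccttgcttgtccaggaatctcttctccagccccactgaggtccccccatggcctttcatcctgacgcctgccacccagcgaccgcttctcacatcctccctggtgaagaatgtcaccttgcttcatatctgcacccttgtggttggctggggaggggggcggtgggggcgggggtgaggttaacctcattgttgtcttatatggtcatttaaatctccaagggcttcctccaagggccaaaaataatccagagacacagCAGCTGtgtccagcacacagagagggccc

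In the Klhl41 window the E-box lay 127 to 122 bases before the start and the MEF2 match, the only one among the called members with a promoter in the table, lay 63 to 54 bases before it. In the Klhl34 window the E-box lay 90 to 85 bases before the start. The upstream start of Asb2 had a CArG box 64 to 55 bases before it, and the downstream start had an E-box within the transcribed part. Of 32851 promoters in the table, 16.3% held CAGCTG, 0.557% the MEF2 motif, 1.63% the CArG box and 3.65% TGTTTAC. Of the 123 promoters of members (90 genes matched by symbol), 25 held CAGCTG (20.3%), 6 the MEF2 motif (4.88%), 3 the CArG box (2.44%) and 2 TGTTTAC (1.63%). These are matches of letters only.

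Library totals ran from 24458339 to 26389008 counts. Park7 read 240, 229 and 266 CPM (counts scaled to the library total) in the controls and 35.9, 41.5, 34.7 and 37.2 CPM in the knockouts, so every library matched its label. The markers of muscle fibres summed to 85632 to 100476 CPM in the controls and to 82693 to 109619 CPM in the knockouts. The 8 slow fibre markers summed to 1730 to 2028 CPM in the controls and to 675, 120, 70.7 and 673 CPM in knockouts 1 to 4, and 3 of them fell. Of the 6 fast fibre markers 3 rose (Myh4, Actn3 and Mybpc2) and 2 fell (Myh1 and Myh2). Myh4 weighed most in their sum, with 40535 to 57140 CPM in the controls and 73365 to 129514 CPM in the knockouts. Falls were also found for 1 of 7 muscle fibre markers (Mb), 2 of 5 macrophage, 2 of 5 fibroblast, 3 of 4 pericyte and smooth muscle, 2 of 4 Schwann cell and 2 of 3 erythroid markers. Beside the slow fibre sums, marker sums that did not overlap between the groups were those of fast fibres (69363 to 90158 and 97081 to 159497 CPM), macrophages (21.3 to 22.1 and 9.59 to 14.9 CPM), endothelium (167 to 209 and 143 to 160 CPM) and Schwann cells (54.0 to 212 and 35.2 to 46.0 CPM). Neutrophil and lymphocyte markers summed to at most 0.913 CPM. The part of these markers in the results that follow was not tested, and in whole muscle fewer cells of a type and less RNA per cell cannot be told apart.

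Of the 110 adaptor genes, 97 had enough counts to be tested, and 14 changed: 8 rose and 6 fell (edgeR, quasi-likelihood F test, p under 0.05 after Benjamini-Hochberg adjustment over 13409 genes). That is 14.4% of the tested adaptors, beside 14.9% of all tested genes. By direction, 6.67% of all tested genes rose and 8.23% fell. The median log2 fold change was 0.03 over the adaptors and 0.01 over all tested genes, and the log2 fold changes of adaptors ran from -1.54 to 0.83. In 29 adaptors (29.9%) the groups did not overlap, with 17 higher and 12 lower in the knockout; the same held for 28.8% of all tested genes (14.0% higher and 14.8% lower). At an unadjusted p under 0.05 there were 31 adaptors, against 31.8% of all tested genes. Of the 14 changes 5 exceeded 1.5-fold, beside 1009 of the 1998 called genes in all. All 5 were falls (Klhl34, Kbtbd13, Klhl41, Fbxo9 and Kbtbd3). The 1009 were not split by direction here. Among all tested genes falls also reached further than rises, with 5th and 95th percentiles of the log2 fold change at -0.93 and 0.55.

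The family counts were 2 rises among 16 tested Asb genes, 2 rises and 2 falls among 33 Klhl genes, 1 rise and 2 falls among 8 Kbtbd genes, 2 falls among 24 Fbxo genes and 3 rises among 16 Fbxl genes. Median log2 fold changes were 0.10, -0.01, 0.13, 0.07 and -0.02 in the same order. The medians hide unlike spreads: the median size of the change, whatever its sign, was 0.17 in Asb, 0.31 in Klhl, 0.49 in Kbtbd, 0.18 in Fbxo and 0.25 in Fbxl genes, against 0.22 over all tested genes. In Kbtbd 6 of 8 genes (75%) had groups that did not overlap, 3 in each direction. The counts elsewhere were 2 of 16 in Asb, 11 of 33 in Klhl, 6 of 24 in Fbxo and 4 of 16 in Fbxl. Over all tested genes the share was 28.8% (14.0% higher and 14.8% lower in the knockout). With upper quartile scaling 5 adaptors rose and 7 fell, while over all genes the share of rises among the calls went from 44.8% to 33.2%. With 1 library left out, 2 adaptors rose without control 3, 3 without control 2, 4 without control 1, knockout 3 or knockout 4 and 5 without knockout 1, and 3 fell without control 2 or control 3. Over all tested genes 258, 381, 302, 382, 551 and 802 rose in these fits, in the order given, against 895 in the main fit. All-gene falls numbered 659 without control 2 and 535 without control 3, against 1103.

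**Figure D1:**
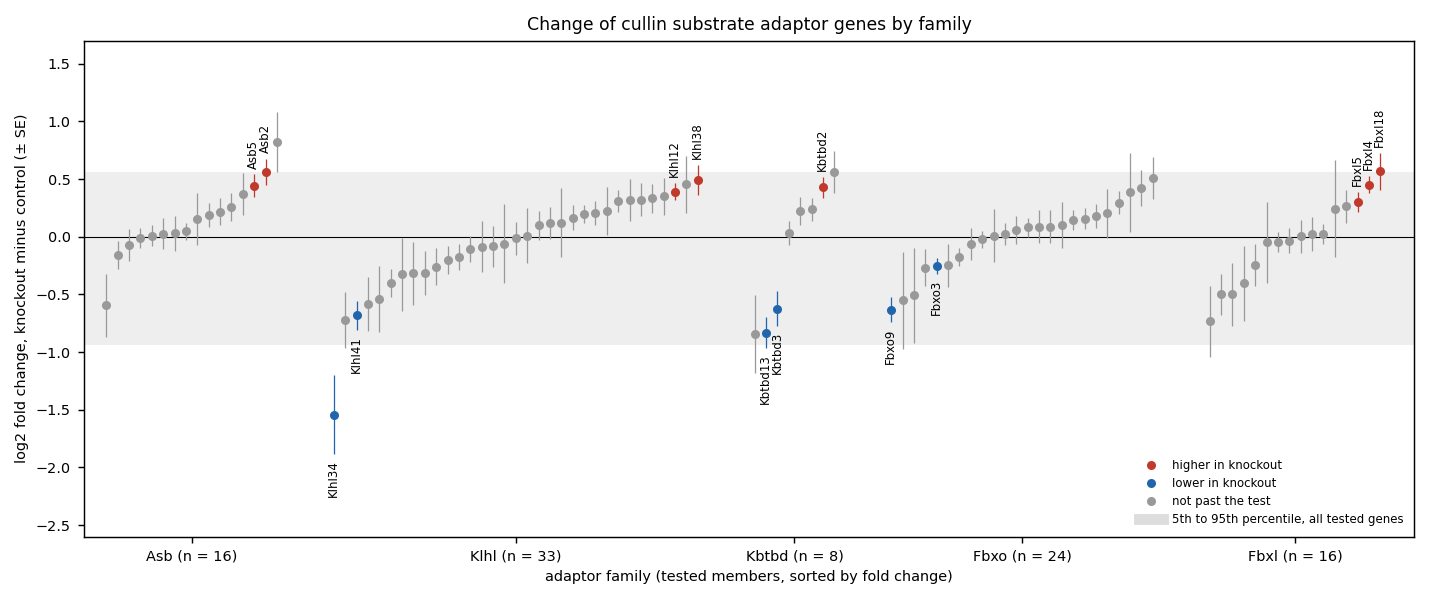
Log2 fold change, knockout minus control, with its standard error for the 97 tested adaptor genes, sorted within each family. Red and blue mark the 8 genes that rose and the 6 that fell, and the grey band spans the 5th to 95th percentile of all tested genes (-0.93 to 0.55). Klhl34, at -1.54, is the only called member below the band, and Asb2 and Fbxl18 lie just above its upper edge.

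The 13 members without a test had at most 11 counts in any library. They were Asb9, Asb17, Klhl14, Klhl32, Klhl35, Kbtbd6, Fbxo2, Fbxo24, Fbxo39, Fbxo41, Fbxo48, Fbxl13 and Fbxl21. Fbxl21, which acts on cryptochromes and the sarcomere protein telethonin, had 24 counts over all 7 libraries. RNA of these adaptors was close to the limit of detection at this depth in both groups. Fbxl13 had 3, 11 and 10 counts in the controls and 1, 0, 0 and 1 in the knockouts. Fbxo2 went the other way, with 3, 3 and 4 counts in the controls and 7, 5, 6 and 4 in the knockouts. In CPM the groups did not overlap for either gene, and neither difference was tested.

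Levels per exon length were highest for the muscle-made adaptors. Klhl41 had 469 CPM per kb of exon in the controls and 292 in the knockouts, and Asb2 had 129 and 190. The next ranks by the mean of all libraries were Asb5 (93.2 and 126.6), Klhl40 (82.7 and 56.8) and Klhl31 (59.5 and 69.5). The most abundant members of the other families stood lower. Fbxo31, an adaptor for cyclin D1, had 29.0 and 27.7 CPM per kb, and Fbxl17, which removes BTB proteins that have paired wrongly, had 17.9 and 17.3. Kbtbd2 had 4.98 and 6.69 CPM per kb. Summed over genes, Asb RNA came to 1368, 1261 and 1147 CPM in the controls and 1608, 1667, 1702 and 1747 CPM in the knockouts. Klhl RNA summed to 2652, 3121 and 2744 CPM in the controls and to 2526, 2206, 2516 and 2516 CPM in the knockouts. Asb sums were thus higher and Klhl sums lower in every knockout library, sums in which Asb2 and Klhl41 weigh most. Without Asb2 the Asb sums still did not overlap between the groups. By gene, however, the groups did not overlap in 2 of 16 tested Asb genes (12.5%, beside 28.8% of all tested genes). Log2 fold changes were above 0 in 12 Asb genes and below 0 in 4, so the higher sums do not show a rise of each member. Without Klhl41 the Klhl sums overlapped, so the lower Klhl sums do not describe the family as a whole.

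Among the Cul5 adaptors, Asb2 and Asb5 rose. Asb2, whose muscle form directs the breakdown of filamins and desmin, read 539, 440 and 390 CPM in the controls and 678, 701, 695 and 621 CPM in the knockouts. All 4 knockouts lay above all controls, and control 1 was the closest. The controls averaged 456 ± 76.1 CPM (SD, n = 3) and the knockouts 674 ± 36.4 CPM (SD, n = 4), for a log2 fold change of 0.56 (adjusted p = 0.0161, SE 0.116). Its locus is chromosome 12, 103321142 to 103356001 on the minus strand (GRCm38). Asb5, on the plus strand of chromosome 8 at 54529580 to 54587842, read 158, 198 and 159 CPM in the controls and 216, 233, 235 and 249 CPM in the knockouts. Its groups did not overlap either, and it rose by 0.44 (adjusted p = 0.0219, SE 0.0993). The call of Asb2 ended without control 2 (adjusted p = 0.0548) or control 3 (0.0563). That of Asb5 ended without control 1 (0.0893), control 3 (0.0874), knockout 3 (0.0545) or knockout 4 (0.0520).

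Asb15 had the largest log2 fold change of the tested genes of its family and did not pass. This adaptor, which has been tied to protein turnover and differentiation of muscle cells, read 178, 108 and 114 CPM in the controls and 211, 162, 227 and 345 CPM in the knockouts. Control 1 lay above knockout 2, so the groups overlapped, and knockout 4 stood highest. The log2 fold change was 0.83 (adjusted p = 0.0637, SE 0.259). It was called by DESeq2 (adjusted p = 0.00894) and without knockout 2 (0.0294). Among alternatives to the main test its adjusted p otherwise stayed above 0.05, up to 0.180 with a library left out.

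The other muscle-rich Asb genes did not pass. Asb10 read 61.0, 62.4 and 58.5 CPM in the controls and 56.2, 100.005, 90.1 and 67.3 CPM in the knockouts, with a log2 fold change of 0.37 (adjusted p = 0.193, SE 0.179). Knockouts 2 and 3, highest for Asb10, were the pair with the lowest slow fibre sums. That match was picked out after the values were seen and was not tested. Among the knockouts, Asb15, Klhl31 and Klhl33 were instead lowest in knockout 2. Asb11 read 110, 134 and 108 CPM in the controls and 141, 166, 121 and 133 CPM in the knockouts (log2 fold change 0.26, adjusted p = 0.179). Asb18 read 9.49, 6.29 and 8.23 CPM in the controls and 4.46, 3.04, 6.33 and 7.38 CPM in the knockouts (log2 fold change -0.60, adjusted p = 0.174). In both genes the groups overlapped. Asb4, Asb8, Asb12, Asb14 and Asb16 had log2 fold changes from -0.16 to 0.15 and adjusted p-values from 0.408 to 0.954. Asb4 varied most among the controls, with 33.1 CPM in control 1 and 17.6 and 17.4 in the other two.

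Among the Cul3 adaptors of the Klhl family, the most abundant gene fell. Klhl41, which stabilizes nebulin in the thin filament and promotes turnover of the scaffold protein N-RAP, read 971, 1411 and 1177 CPM in the controls and 821, 725, 729 and 681 CPM in the knockouts. All knockouts lay below all controls, and the knockouts were closer to each other than the controls were. The controls averaged 1186 ± 220 CPM (SD, n = 3) and the knockouts 739 ± 59.1 CPM (SD, n = 4), for a log2 fold change of -0.68 (adjusted p = 0.0126, SE 0.130). The call was made without each library in turn (adjusted p = 0.0136 to 0.0450). Its locus is chromosome 2, 69670120 to 69684230 on the plus strand.

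Klhl40, the closest relative in function, which stabilizes nebulin and leiomodin-3, varied widely in both groups. It read 129, 298 and 193 CPM in the controls and 187, 122, 163 and 96.6 CPM in the knockouts. Control 1 lay among the knockouts, and control 2 was the highest library. The log2 fold change was -0.54 (adjusted p = 0.233, SE 0.287).

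Klhl34 had the lowest log2 fold change of all tested adaptors. The gene, on the plus strand of the X chromosome at 157818435 to 157820369, read 17.0, 24.5 and 16.8 CPM in the controls and 10.6, 8.33, 3.43 and 4.27 CPM in the knockouts. No library of one group reached the other, and knockouts 3 and 4 lay below knockouts 1 and 2. The mean level in the knockouts was 0.342 times that of the controls. The log2 fold change was -1.54 (adjusted p = 0.0216, SE 0.345), and the call ended without control 2 (0.0700) or control 3 (0.0509).

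Klhl12 and Klhl38 rose. Klhl12, the adaptor that marks the coat protein Sec31 and so enlarges vesicles for procollagen export, read 27.1, 26.4 and 27.6 CPM in the controls and 34.0, 36.2, 37.4 and 34.3 CPM in the knockouts. Both groups were tight and apart, with a log2 fold change of 0.39 (adjusted p = 0.0128, SE 0.0747). The call was made without each library in turn. Klhl38 read 62.7, 58.0 and 49.8 CPM in the controls and 73.4, 86.9, 66.0 and 93.3 CPM in the knockouts. Knockout 3 was only just above control 1. It rose by 0.49 (adjusted p = 0.0396, SE 0.133), and the call held without knockout 3 and was lost without each other library (0.0501 to 0.131) and with upper quartile scaling (0.0590).

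The remaining muscle-rich Klhl genes varied more within the groups than between them. Klhl31, which controls filamin C, read 487, 343 and 328 CPM in the controls and 432, 309, 529 and 535 CPM in the knockouts (log2 fold change 0.22, adjusted p = 0.489, SE 0.206). Klhl33 read 167, 138 and 170 CPM in the controls and 107, 78.2, 117 and 206 CPM in the knockouts (log2 fold change -0.32, adjusted p = 0.458, SE 0.274). Without knockout 4, its highest library, Klhl33 was called lower (log2 fold change -0.65, adjusted p = 0.0395). Klhl30 read 106, 174 and 86.3 CPM in the controls and 163, 156, 140 and 74.0 CPM in the knockouts (adjusted p = 0.811). Klhl21, an adaptor of cell division, read 175, 164 and 198 CPM in the controls and 148, 198, 210 and 222 CPM in the knockouts (adjusted p = 0.586). Klhl3, which acts on WNK kinases in the kidney, stayed under 1 CPM in every library. Klhl4 had the largest change of the Klhl genes that did not pass, at -0.72 (adjusted p = 0.0753, SE 0.241), from levels of 1.36 ± 0.312 CPM (SD, n = 3) and 0.818 ± 0.114 CPM (SD, n = 4). Klhl23, singled out after its values were seen as the member nearest to the threshold, read 25.2, 19.2 and 20.01 CPM in the controls and 14.3, 17.3, 16.3 and 17.3 CPM in the knockouts (log2 fold change -0.40, adjusted p = 0.0560).

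**Figure D2:**
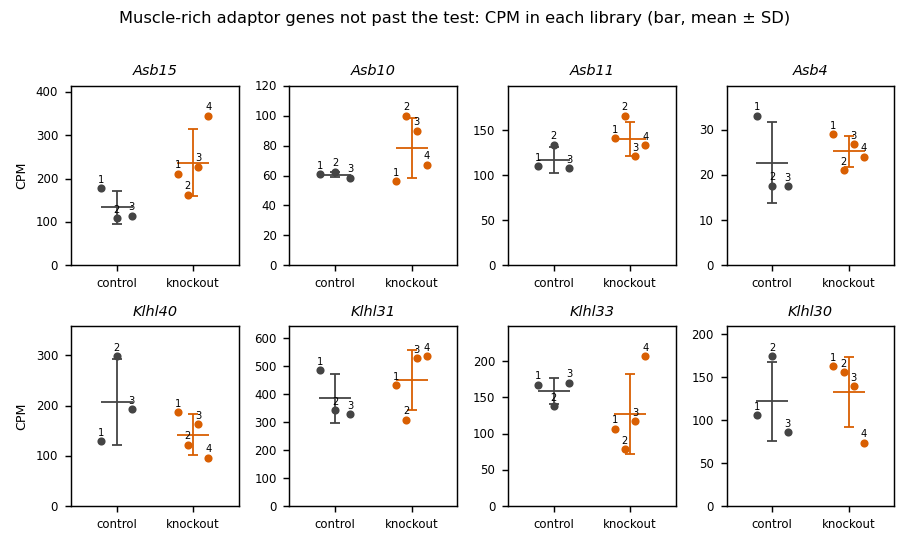
CPM in each library, numbered by replicate, of 8 muscle-rich Asb and Klhl genes that did not pass the test, with the mean and SD of each group. The groups overlap in every panel, and control 2 is the highest control for Klhl40 (298 CPM) and Klhl30 (174 CPM).

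In the Kbtbd family 2 genes fell and 1 rose. Kbtbd13, whose mutation causes nemaline myopathy with cores and which slows muscle relaxation when mutant, read 17.2, 14.9 and 16.5 CPM in the controls and 7.51, 10.96, 9.32 and 8.50 CPM in the knockouts. The groups stood well apart. The controls averaged 16.2 ± 1.17 CPM (SD, n = 3) and the knockouts 9.07 ± 1.46 CPM (SD, n = 4), for a log2 fold change of -0.83 (adjusted p = 0.00748, SE 0.134). It was called without each library in turn (adjusted p = 0.00404 to 0.0310). Its locus is chromosome 9, 65388684 to 65391652 on the minus strand. Kbtbd2, which sets the amount of the p85 subunit of PI3 kinase and so supports insulin signalling, read 22.4, 19.5 and 19.0 CPM in the controls and 27.6, 25.4, 27.96 and 28.3 CPM in the knockouts. Its groups were apart, and it rose by 0.43 (adjusted p = 0.0178, SE 0.0906). Kbtbd3 read 5.23, 6.09 and 6.41 CPM in the controls and 4.32, 3.12, 3.74 and 4.15 CPM in the knockouts and fell, with a log2 fold change of -0.62 (adjusted p = 0.0276, SE 0.151). The calls of Kbtbd2 and Kbtbd3 ended without control 2 (0.0590 and 0.0775), control 3 (0.0720 and 0.0996) or knockout 3 (0.0505 and 0.0707). Kbtbd12 had a log2 fold change of 0.22 (adjusted p = 0.238). Kbtbd11 had the largest change of those that did not pass, at -0.84 (adjusted p = 0.126, SE 0.339), with 1.01 ± 0.340 CPM (SD, n = 3) in the controls and 0.554 ± 0.175 CPM (SD, n = 4) in the knockouts.

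Among the Cul1 adaptors of the Fbxo family, Fbxo9 and Fbxo3 fell. Fbxo9, which marks the mTOR partners Tel2 and Tti1, read 47.4, 47.5 and 45.8 CPM in the controls and 36.4, 27.3, 27.0 and 30.2 CPM in the knockouts. The controls were nearly equal, and knockout 1 was the closest to them. The controls averaged 46.9 ± 0.964 CPM (SD, n = 3) and the knockouts 30.2 ± 4.34 CPM (SD, n = 4), for a log2 fold change of -0.63 (adjusted p = 0.00914, SE 0.109), and the call was made without each library in turn. Its locus is chromosome 9, 78081499 to 78109065 on the minus strand. Fbxo3, which has been tied to cytokine signalling through its removal of Fbxl2, read 143, 130 and 139 CPM in the controls and 118, 120, 112 and 112 CPM in the knockouts. It fell, with a log2 fold change of -0.25 (adjusted p = 0.0429, SE 0.0693), the smallest called change among the adaptors. That call held without knockout 2 and was lost without each other library (0.0546 to 0.145) and with no filter on low counts (0.0879). Fbxo31 read 154, 160 and 162 CPM in the controls and 112, 152, 169 and 175 CPM in the knockouts (log2 fold change -0.06, adjusted p = 0.788), with knockout 1 lowest. Fbxo5, an inhibitor of the anaphase-promoting complex, had the largest change of the Fbxo genes that did not pass, at -0.55 (adjusted p = 0.400, SE 0.419), from under 1 CPM.

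In the leucine-rich Fbxl family 3 genes rose. Fbxl4, which sits at the mitochondrial outer membrane, restrains mitophagy by removing BNIP3 and NIX and causes mitochondrial DNA depletion when mutated, read 25.2, 27.0 and 26.9 CPM in the controls and 37.0, 35.6, 37.6 and 34.1 CPM in the knockouts. Both groups were tight and did not overlap. The controls averaged 26.4 ± 0.9999 CPM (SD, n = 3) and the knockouts 36.1 ± 1.55 CPM (SD, n = 4), for a log2 fold change of 0.45 (adjusted p = 0.00847, SE 0.0758). It was called without each library in turn (adjusted p = 0.0116 to 0.0389). Its locus is chromosome 4, 22357543 to 22434091 on the plus strand.

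Fbxl5, the iron sensor that removes the iron regulatory protein IRP2 when iron is plentiful, read 34.6, 29.8 and 35.3 CPM in the controls and 40.9, 41.9, 39.1 and 42.2 CPM in the knockouts. It rose by 0.30 (adjusted p = 0.0429, SE 0.0840). The call was lost without each library (0.0625 to 0.123), with no filter on low counts (0.0709) and with upper quartile scaling (0.0836). Fbxl18 was scarce, with 2.09, 2.15 and 2.40 CPM in the controls and 3.12, 2.82, 3.66 and 3.55 CPM in the knockouts, and rose by 0.57 (adjusted p = 0.0441, SE 0.159). Its call held without knockout 2 and was lost without each other library (0.0635 to 0.140), with DESeq2 (0.0528), with no filter (0.0588) and with upper quartile scaling (0.0594). Fbxl7, which Fbxl18 is known to remove, had a log2 fold change of -0.73 (adjusted p = 0.139, SE 0.307). Fbxl17 had a log2 fold change of -0.05 (adjusted p = 0.757). Fbxl22, a Z-disc adaptor of striated muscle, read 2.13, 1.72 and 1.35 CPM in the controls and 0.834, 0.875, 1.63 and 1.93 CPM in the knockouts (adjusted p = 0.428), and its reads are shared with another gene in part.

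**Figure D3:**
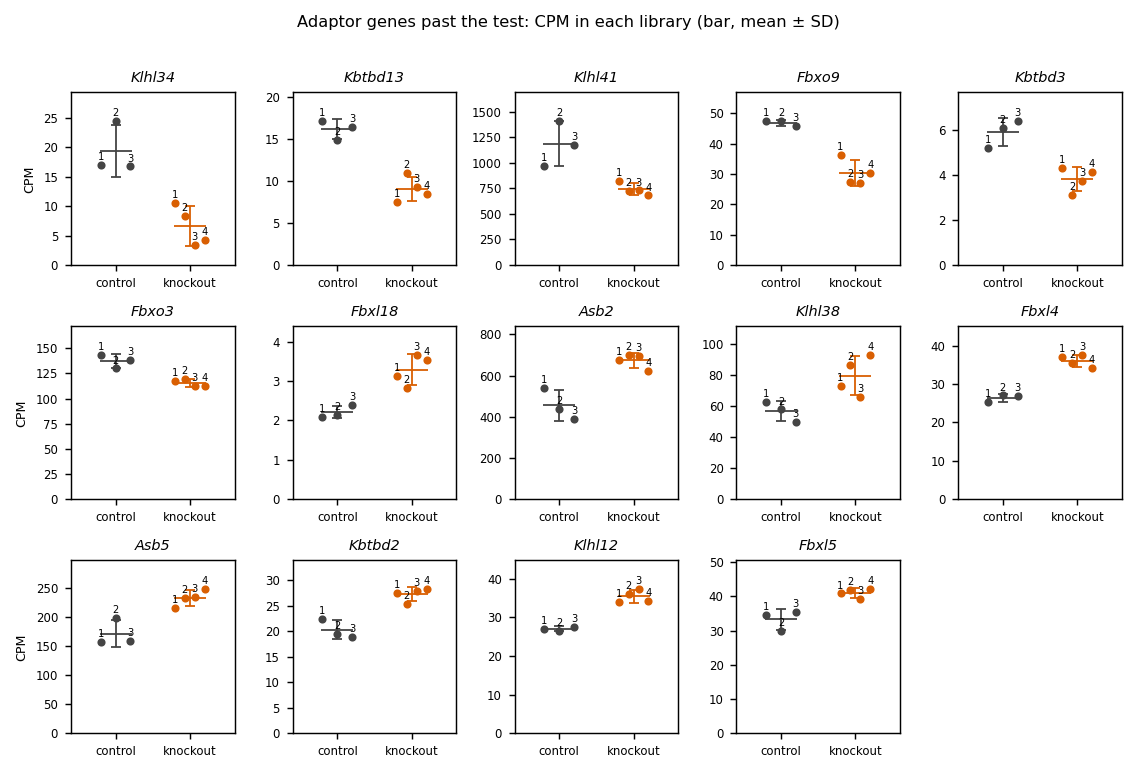
CPM in each library, numbered by replicate, of the 14 adaptor genes that passed the test, with the mean and SD of each group and an axis from 0. The 6 falls come first, from Klhl34 to Fbxo3, then the 8 rises from Fbxl18 to Fbxl5, and the groups do not overlap in any panel.

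The shared parts of the ligases were examined in a list of 39 genes: cullins, RING proteins, linkers, the enzymes that attach Nedd8 to cullins, the COP9 signalosome that removes it, the exchange factors and partner enzymes. All 39 were tested, 7 rose and 0 fell by edgeR, where 13 and 1 did at an unadjusted p under 0.05, and DESeq2 called 8 and 1. Over all 13409 tested genes 2058 rose and 2204 fell at an unadjusted edgeR p under 0.05, and DESeq2 called 1076 and 1278. The edgeR calls made up 17.9% of the core, all of them rises, beside 14.9% of all tested genes (6.67% higher and 8.23% lower). The median log2 fold change was 0.12 against 0.01 over all tested genes. In 18 genes (46.2%) the groups did not overlap, 16 higher and 2 lower in the knockout, where 28.8% of all tested genes did not (14.0% higher and 14.8% lower).

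Of the cullins, Cul3 and Cul1 rose. Cul3, the scaffold of the Klhl and Kbtbd ligases, read 309, 302 and 281 CPM in the controls and 398, 398, 413 and 422 CPM in the knockouts. Its groups were far apart relative to their spread, with a log2 fold change of 0.46 (adjusted p = 0.00724, SE 0.0720). The call was made without each library in turn. Cul1, the scaffold of the F-box ligases, read 94.5, 98.7 and 98.4 CPM in the controls and 125, 113, 118 and 125 CPM in the knockouts (log2 fold change 0.31, adjusted p = 0.0233, SE 0.0701). Cul5, the scaffold of the Asb ligases, read 114, 116 and 119 CPM in the controls and 133, 126, 129 and 132 CPM in the knockouts, apart but not called (log2 fold change 0.16, adjusted p = 0.119, SE 0.0639).

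The other 5 rises were in a linker, the signalosome and partner ligases. Tceb2, which encodes elongin B, rose by 0.33 (adjusted p = 0.0198, SE 0.0718), and Tceb1, for elongin C, had a log2 fold change of 0.05 (adjusted p = 0.754). Skp1a, the linker of the F-box proteins, read 176, 177 and 177 CPM in the controls and 152, 154, 148 and 163 CPM in the knockouts, a log2 fold change of -0.19 that did not pass (adjusted p = 0.0802, SE 0.0664). Cops5, the catalytic subunit of the signalosome, and Cops7a rose by 0.30 and 0.30 (adjusted p = 0.0297 and 0.0246). Arih2 and Arih1, RING-between-RING ligases that work with Cul5 and with other neddylated cullins, rose by 0.35 and 0.26 (adjusted p = 0.0197 and 0.0420). The number of core genes that rose was 1 without control 1 or control 3, 2 without control 2, and 3 without knockout 3 or knockout 4. Over all tested genes 302, 258, 381, 382 and 551 rose in these fits, in the order given, against 895 in the main fit. The call of Cul1 ended without any control (0.0577 to 0.0969), knockout 3 (0.0520) or knockout 4 (0.0574), that of Arih1 without each library (0.0562 to 0.150), that of Cops5 without each but knockout 2 (0.0520 to 0.111), and that of Cops7a without each but knockouts 1 and 2 (0.0611 to 0.0872). Tceb2 lost its call without control 1 (0.0806) or control 3 (0.0748), and Arih2 without any control (0.0532 to 0.0876).

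**Figure D4:**
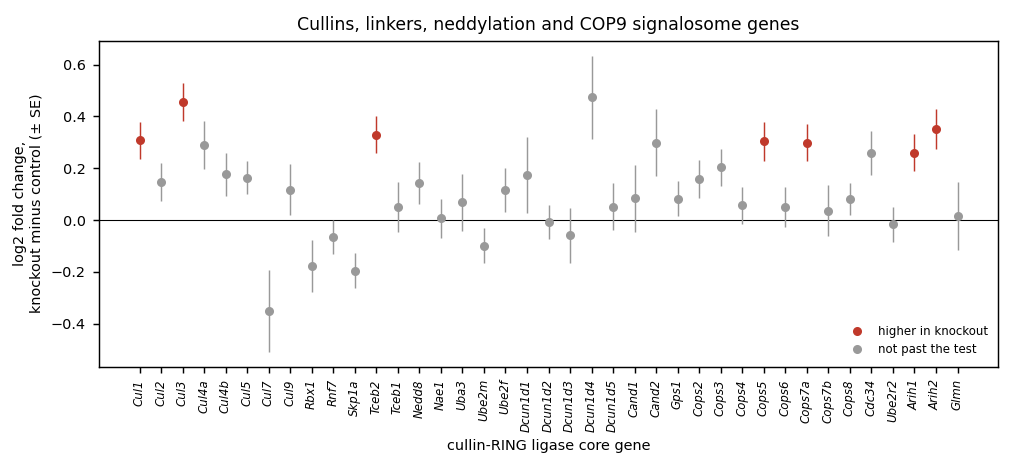
Log2 fold change, knockout minus control, with its standard error for 39 genes of the cullin-RING core. The 7 rises are in red, led by Cul3 at 0.46. Below 0 lie 8 genes that did not pass, among them Rbx1, Rnf7, Skp1a and the cullin Cul7, which is lowest at -0.35.

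A list of 19 genes for known targets or partners of single adaptors gave 2 rises and 2 falls among 18 tested (22.2%, beside 14.9% of all tested genes). Lmod3, the leiomodin that Klhl40 stabilizes, read 157, 178 and 134 CPM in the controls and 110, 59.7, 69.3 and 84.0 CPM in the knockouts. Every knockout was lower, and the log2 fold change was -0.95 (adjusted p = 0.0150, SE 0.192, which became 0.0518 without control 2). Nrap, the N-RAP scaffold handled by Klhl41, fell, with a log2 fold change of -0.53 (adjusted p = 0.0352, SE 0.139). That call held without control 1 or knockout 2 and was lost without each other library (0.0555 to 0.117). Neb, for nebulin itself, read 5716, 6242 and 7110 CPM in the controls and 5521, 5496, 5668 and 6124 CPM in the knockouts, a difference that did not pass (log2 fold change -0.16, adjusted p = 0.428, SE 0.126).

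Beside the rise of Asb2, the filamin RNAs Flna and Flnc and the desmin RNA Des did not pass. Flna had a log2 fold change of -0.28 (adjusted p = 0.0903), Flnc one of -0.01 (adjusted p = 0.987) and Des one of 0.15 (adjusted p = 0.411). Of the other partners, Cry1, a clock repressor, rose by 0.52 (adjusted p = 0.0186, SE 0.113), and Cry2 had the same log2 fold change of 0.52 with a wider spread (adjusted p = 0.141, SE 0.220). Wnk1, a kinase that Klhl3 removes, rose by 0.45 (adjusted p = 0.0197, SE 0.0974). The call of Cry1 ended without control 1 (0.0705), control 2 (0.0591) or knockout 3 (0.0513) and that of Wnk1 without control 1 (0.0796) or control 2 (0.0621). Bnip3 and Bnip3l, whose proteins Fbxl4 removes, had log2 fold changes of 0.14 and 0.01 (adjusted p = 0.430 and 0.933), and Ireb2, for IRP2, one of 0.15 (adjusted p = 0.272). These adaptors act on proteins, which were not measured.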

How the data were processed

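Per the labels, RNA of 7 gastrocnemius samples was sequenced with BGISEQ-500 chemistry (paired ends, 150 bp). Per the submitters' processing notes, the authors used STAR 2.7.10a, RSEM 1.2.28 and DESeq2 1.3.40 with mm10. The deposited table holds the authors' expected counts per gene symbol, rounded here to whole numbers. Annotation and strand are, in the sources used here, not given. Fractional values mark reads shared between similar genes and occur in 11 members, none of them called.

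All genes were fitted together in R 4.3.3 with edgeR 4.0.16: filterByExpr, TMM scaling, and the quasi-likelihood F test with bias-adjusted deviances. Benjamini-Hochberg adjustment ran over every tested gene. The SE of a log2 fold change is its size divided by the root of F. CPM use TMM library sizes and are given as mean ± SD. Exon lengths and positions are from GENCODE M21 (GRCm38, the same build as mm10), which matched 108 members by symbol and 1 by an older symbol. The fit was tested on simulated data.

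Alternatives were DESeq2 1.42.0, upper quartile or RLE scaling, a filter on the mean count (10 or more) or none, a replicate block and each library left out, and, chosen after seeing the data, edgeR's older quasi-likelihood. The genes named are Park7, every called adaptor, 31 muscle-rich or well-described adaptors, the most abundant (per length) and most changed uncalled adaptor of each family, and called genes of the core and target lists. Klhl23, Fbxo27, the counts of Fbxl13 and Fbxo2, and genes named to spell out counts or lists were added after their values were seen. The members and lists were chosen with earlier results of these data known. Single values of some genes are not reported here.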

Additional observations from a re-analysis of the deposited data

How the results depend on the processing

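With RLE scaling, a mean count of at least 10 or the older quasi-likelihood (the latter chosen after seeing the data), all 50 named genes with a test kept their direction and their side of the threshold, as did 48 with DESeq2, 46 with no filter, 45 with upper quartile scaling and 36 with the replicate block. No named gene that was called changed sign under any alternative. With no filter, 1 Fbxo gene fell and Fbxl genes gave 1 rise and 1 fall. With upper quartile scaling 5 adaptors rose, among them 1 Klhl and 1 Fbxl gene, and 1 core gene fell, as 1 did with DESeq2. The causes were not tested.

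Replicate numbers are shared by the groups for 1 to 3, but the labels do not say that they pair the samples. Deviations from the group means correlated across genes at 0.0945, 0.134 and 0.0854 for equal numbers, so not every pair passed 0.1, although each control correlated best with the knockout of its own number. With the replicate block, 577 genes rose and 696 fell, against 895 and 1103. No control has replicate number 4, so knockout 4 adds nothing to the group difference under the block, as when that library is left out. In that fit 4 adaptors rose: Klhl 1, Fbxl 1, Kbtbd 0 and the rest Asb, and 6 fell: 3 in Klhl, 1 in Asb, 1 in Kbtbd and 1 in Fbxo. It called Klhl33 (log2 fold change -0.67, adjusted p = 0.0145) and Asb18 (-0.83, adjusted p = 0.0466) lower, and ended the calls of Fbxl18 (0.111), Fbxl5 (0.121), Fbxo3 (0.118), Klhl38 (0.0517), Kbtbd2 (0.0536), Kbtbd3 (0.0752), Nrap (0.0728), Cul1 (0.0798), Tceb2 (0.0536), Arih1 (0.0627), Arih2 (0.0640) and Cops7a (0.0806). It gave 3 rises in the core and 1 fall among targets.

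With 1 library left out, in fits with fewer samples, 258 to 966 genes rose and 528 to 1091 fell. Adaptors gave 2 to 7 rises and 3 to 7 falls. By family the rises ran from 0 to 3 (Asb), 1 to 2 (Klhl), 0 to 1 (Kbtbd) and 1 to 2 (Fbxl), and the falls from 1 to 3 (Klhl), 1 to 2 (Kbtbd), 1 to 2 (Fbxo) and 0 to 1 (Fbxl). The core gave 1 to 7 rises, and targets 0 to 2 rises and 0 to 2 falls. Of the 14 called adaptors, Fbxl4, Fbxo9, Kbtbd13, Klhl12 and Klhl41 were called in all 7 of these fits. The lowest tested member averaged 0.405 CPM, where few counts limit what can be detected.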

Other observations

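The patterns in this part were singled out after the values had been seen and are given as values only. Control 2 was the highest of the 7 libraries for Klhl40 (298 CPM), Klhl41 (1411 CPM), Klhl30 (174 CPM) and Klhl34 (24.5 CPM), and also for Flnc (2917 CPM, against 1160 and 1219 CPM in the other controls and 923 to 2247 CPM in the knockouts). Asb15 and Klhl31 ran otherwise: among the controls both were highest in control 1 (178 and 487 CPM) and among the knockouts both were highest in knockout 4 (345 and 535 CPM) and lowest in knockout 2 (162 and 309 CPM). Klhl33 shared the extremes of the knockouts, with 206 CPM in knockout 4 and 78.2 CPM in knockout 2.

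The RNAs of 2 partners of the adaptors stood far higher in knockout 2 than in any other library: Pik3r1, the p85 target of Kbtbd2, at 123 CPM against 39.0 to 62.4 CPM elsewhere in both groups, and Dapk1, a kinase that Klhl20 removes, at 14.3 CPM against 2.45 to 5.10 CPM.

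The scarce genes Fbxo5 on chromosome 10 and Fbxo27 on chromosome 7 had equal counts in 5 of 7 libraries (6 and 14 in controls 2 and 3, 10, 11 and 7 in knockouts 1, 2 and 4) and nearly equal ones in control 1 (17 and 18) and knockout 3 (6 and 8).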
